A study of Mus musculus with 17 samples.

Results

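The genes described here are the replication-dependent histone genes, the multicopy genes that supply the core histones H2A, H2B, H3 and H4 and the linker histone H1 when DNA is copied. They were taken by symbol (H2ac, H2bc, H3c or H4c with a number, and H1f1 to H1f6). Of 64 RefSeq mouse genes of that form, 27 had an array probe set that names them alone, among 19937 genes measured in that way. These 27 are 5 H1, 4 H2A, 9 H2B, 3 H3 and 6 H4 genes, 23 of them on chromosome 13 and 4 on chromosome 3. Of the other 37, 36 were named only on 22 probe sets that several histone genes share, and H2ac14 on none.

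CD31+CD45−Ter119− cells were sorted from the pooled aorta-gonad-mesonephros (AGM) region of E11.5 mouse embryos, where blood stem cells arise from endothelium, and their RNA was measured on 17 arrays. Cells held for 2 h on OP9 bone marrow stroma overexpressing the Notch ligand Jag1 were sorted again by CD31, CD45 and Kit into Kit+J (3 arrays) and Kit−J (2 arrays), and cells held for 2 h on OP9 stroma overexpressing Dll4, another Notch ligand, into Kit+D and Kit−D (3 arrays each). Uncultured Kit+ and Kit− cells (3 arrays each) were the fresh populations, and since they came from an earlier array set, an effect of culture and a difference between the array sets cannot be told apart in comparisons with them. All cultured cells shared a medium with IL3, SCF, IL6, IGF-1, FGF, VEGF and erythropoietin, and the strain of the embryos was not given in the sources used here.

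Histone mRNA of these genes accumulates during S phase and is removed when DNA synthesis ends, so its level follows the cells that are copying their genome. The transcripts end in a stem-loop instead of a poly(A) tail. Npat and Hinfp drive their transcription at the histone locus body, and stem-loop binding protein (Slbp) directs the cutting of their 3′ ends. In bulk RNA of this kind, fewer cells in S phase and less histone RNA per cell cannot be told apart.

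The array labels need a caution. For both Kit−J arrays, Kit−D replicate 3 and Kit+D replicate 3, one line of the description names the opposite Kit population, and the groups here follow the titles. Kit mRNA had a log2 signal of 9.08 and 8.50 on the arrays labelled Kit−J, against 7.72, 7.05 and 8.02 on Kit−D arrays. It was 9.55, 9.44 and 9.54 on fresh Kit+ arrays and 8.29, 8.21 and 8.13 on fresh Kit− arrays, so the arrays labelled Kit−J lay between the fresh populations. Cdh5, which encodes VE-cadherin and marks endothelium, read 8.15 and 8.29 on the arrays labelled Kit−J. It read 11.06, 11.05 and 11.42 in Kit−D and 11.0, 11.1 and 11.0 on the fresh Kit− arrays. On fresh Kit+ arrays it read 5.65, 6.31 and 6.55, so the arrays labelled Kit−J lay between the fresh populations on Cdh5 too. Over 12 endothelial markers the mean signal relative to Kit− was −2.23 and −1.87 on the arrays labelled Kit−J, from 0.21 to 0.68 on Kit−D arrays and from −2.84 to −2.51 on fresh Kit+ arrays. On the endothelial list the arrays labelled Kit−J were thus closer to the fresh Kit+ arrays. On Kit itself replicate 1 (9.08) was closer to the fresh Kit+ arrays and replicate 2 (8.50) to the fresh Kit− arrays. On the Kit+D arrays, with the flagged replicate 3 last, Kit read 8.98, 8.51 and 8.99 and Cdh5 read 5.93, 8.33 and 8.58. Their endothelial list means were −2.73, −1.76 and −1.67, a range that held both arrays labelled Kit−J. Whether the description lines or the titles are right was not tested. The study also assayed endothelial genes by RT-PCR in separate pools of Kit−J cells, which were not used here.

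The promoters of 23 of the 27 genes were matched in RefSeq (GRCm38.p6), and the 150 bases before the annotated start were searched on both strands for 5 motifs with no overlap among the matches. The motifs were the TATA box TATAAA, the CCAAT box CCAAT, the octamer ATTTGCAT, the H1 box AAACACA and the letters GGTCCG, the core of the element that Hinfp binds in H4 genes of human cells. GGTCCG was added after the sequences had been seen. The 4 H4 promoters with GGTCCG are shown because H4 is the class in which every measured gene fell in Kit+J relative to Kit+D, and capitals mark the motif matches. They lie at chr13:23551669-23551818 (H4c6, minus strand), chr13:23581418-23581567 (H4c4, plus strand), chr13:22041363-22041512 (H4c9, minus strand) and chr13:23698459-23698608 (H4c3, minus strand).
H4c6: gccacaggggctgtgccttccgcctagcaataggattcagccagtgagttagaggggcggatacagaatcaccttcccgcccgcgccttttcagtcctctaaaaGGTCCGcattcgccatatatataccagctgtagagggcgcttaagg
H4c4: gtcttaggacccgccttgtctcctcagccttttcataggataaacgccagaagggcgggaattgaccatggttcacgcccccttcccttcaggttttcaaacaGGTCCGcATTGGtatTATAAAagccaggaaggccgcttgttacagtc
H4c9: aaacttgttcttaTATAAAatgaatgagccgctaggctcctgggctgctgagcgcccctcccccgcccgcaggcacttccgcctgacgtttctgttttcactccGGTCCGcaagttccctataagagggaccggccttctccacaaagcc
H4c3: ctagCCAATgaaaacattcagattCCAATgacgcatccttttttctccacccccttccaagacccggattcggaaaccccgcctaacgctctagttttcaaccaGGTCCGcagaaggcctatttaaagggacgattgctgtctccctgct

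The H2B promoters with an octamer among the genes that fell are shown for comparison, since the octamer, a site for Oct1, is the element known for H2B genes. They lie on the plus strand at chr13:21721894-21722043 (H2bc14), chr13:23746584-23746733 (H2bc3) and chr13:23571250-23571399 (H2bc8).
H2bc14: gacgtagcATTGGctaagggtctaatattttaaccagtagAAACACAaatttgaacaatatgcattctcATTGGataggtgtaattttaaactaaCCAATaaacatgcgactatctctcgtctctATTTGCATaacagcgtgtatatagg
H2bc3: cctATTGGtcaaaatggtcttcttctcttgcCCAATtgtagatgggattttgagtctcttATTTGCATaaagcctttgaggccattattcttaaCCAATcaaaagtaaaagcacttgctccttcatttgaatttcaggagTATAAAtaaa
H2bc8: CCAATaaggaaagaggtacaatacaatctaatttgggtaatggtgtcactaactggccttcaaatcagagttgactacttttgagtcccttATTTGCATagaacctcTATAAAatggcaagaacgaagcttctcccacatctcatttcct

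Over all 23 promoters, a CCAAT box was found in 19, a TATA box in 12, an octamer in 7, an H1 box in 7 and GGTCCG in 5. Of 27025 promoter windows of the same length in the table, 25.3% held CCAAT, 8.08% TATAAA, 1.02% the octamer, 3.5% the H1 box and 4.53% GGTCCG. By class, the octamer was found in 4 of 7 H2B and 3 of 4 H2A promoters and in 0 of 5 H4 promoters, and the H1 box in 4 of 5 H1 promoters. GGTCCG was found in 4 of 5 H4 promoters and in H2bc9. Of the 10 matched genes that fell in Kit+J relative to Kit+D, 7 had a CCAAT box, 5 a TATA box and 4 an octamer, against 12, 7 and 3 of the other 13. H2bc8 and H2ac8 are transcribed away from each other with windows that overlap over most of their length, and H2bc1 and H2ac1 with windows that overlap only at their far ends. A match describes these letters only.

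The cultures set cells on Jag1 stroma beside cells on Dll4 stroma. No array came from cells held on OP9 stroma without an added ligand, so the response to either ligand alone was not measured. Between the Kit+ cells of both cultures the histone genes that were called moved in 1 direction. In Kit+J relative to Kit+D, 11 of the 27 genes fell and 0 rose (limma, Benjamini-Hochberg adjusted p below 0.05 over 19937 genes). Over all genes, 1.68% fell and 0.577% rose. All 6 H4 genes fell, as did 4 of 9 H2B genes (H2bc3, H2bc8, H2bc14 and H2bc22) and 1 of 4 H2A genes (H2ac4), whereas 0 of 5 H1 and 0 of 3 H3 genes were called. The median difference of the 27 genes was −0.70 on the log2 scale, against 0.03 for all genes, and 24 lay below 0.

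**Figure D1:**
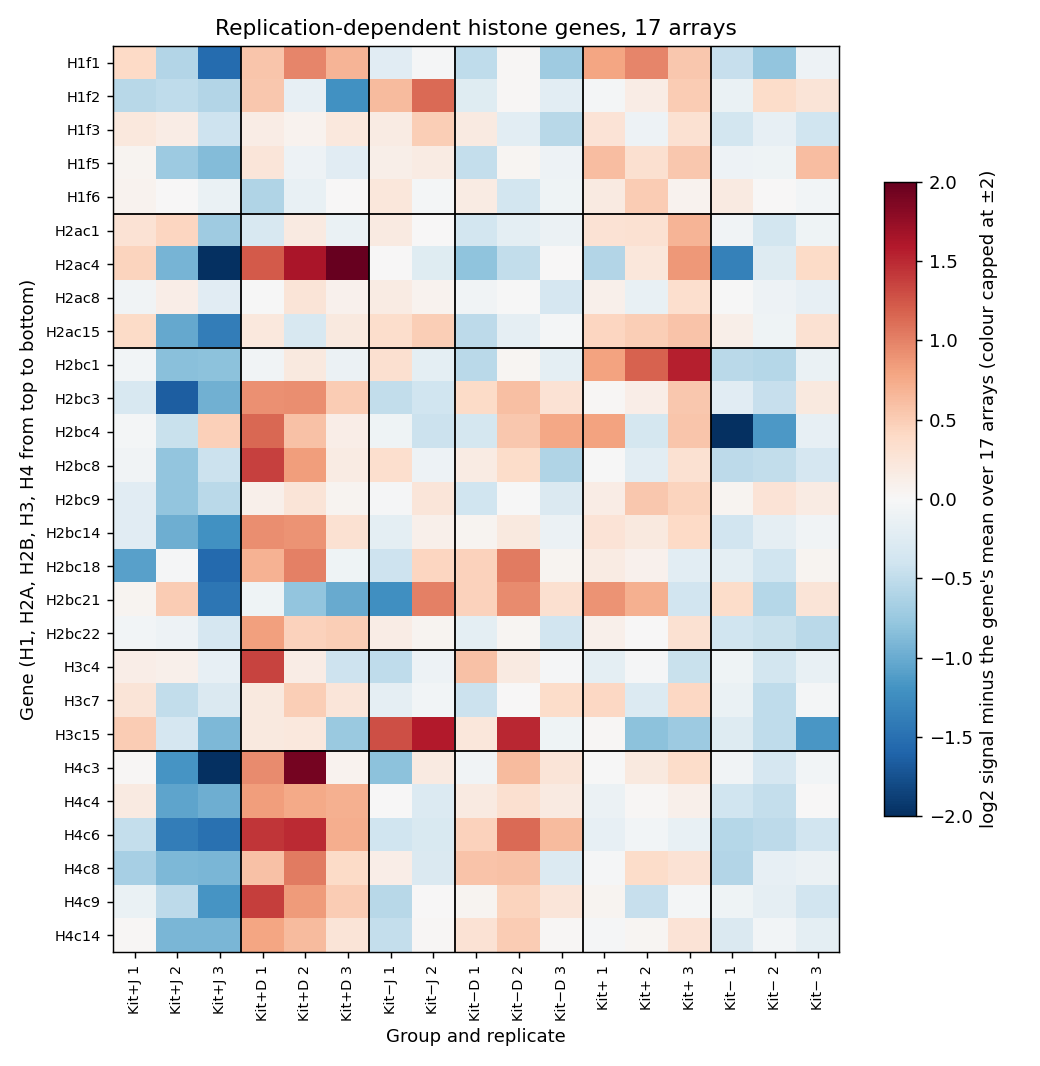
Log2 signal of each of the 27 histone genes (rows, by class) on each of the 17 arrays (columns, by group), minus the gene's mean over all arrays, with colours capped at ±2. Kit+D columns are mostly red and Kit+J replicates 2 and 3 mostly blue, with Kit+J replicate 1 between them.

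Histone H4 pairs with H3 at the centre of the nucleosome, and its genes mostly encode the same protein. H4c6 gave the smallest adjusted p. Its log2 signal was 6.93, 6.03 and 5.92 in Kit+J, against 8.84, 8.90 and 8.13 in Kit+D. Every Kit+J array lay below every Kit+D array, a 5.02-fold lower signal (log2 difference −2.33 ± 0.26, SE, adjusted p = 0.00145). H4c8 read 5.08, 4.85 and 4.84 in Kit+J, against 6.33, 6.79 and 6.13 in Kit+D (−1.50 ± 0.24, adjusted p = 0.00908). H4c4 read 11.19, 9.96 and 10.03 in Kit+J, against 11.84, 11.77 and 11.71 in Kit+D (−1.38 ± 0.25, adjusted p = 0.0157). In both genes the groups did not overlap, and the Kit+D arrays of H4c4 lay close together while Kit+J replicate 1 stood above the other Kit+J arrays. The other H4 genes behaved alike: H4c9 fell by 1.53 (adjusted p = 0.014), H4c3 fell by 2.03 (adjusted p = 0.0388) and H4c14 fell by 1.16 (adjusted p = 0.0238), each with all Kit+J arrays below all Kit+D arrays.

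H2B forms dimers with H2A on the outside of that core. H2bc14 read 9.09, 8.34 and 8.11 in Kit+J, against 10.25, 10.22 and 9.62 in Kit+D, 2.87-fold lower in Kit+J (−1.52 ± 0.23, adjusted p = 0.00582). H2bc3 read 6.84, 5.52 and 6.20 in Kit+J, against 8.07, 8.10 and 7.67 in Kit+D (−1.76 ± 0.27, adjusted p = 0.00716). The groups were apart in both genes, with replicate 1 the highest Kit+J array. H2bc8 fell by 1.22 (adjusted p = 0.0472) and H2bc22 by 0.76 (adjusted p = 0.0194). Among H2A genes, H2ac4 read 7.04, 5.66 and 4.43 in Kit+J, against 7.83, 8.22 and 8.65 in Kit+D, the widest difference of the 27 (−2.52 ± 0.56, adjusted p = 0.0327) and also the widest scatter among Kit+J arrays (SD 1.31).

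The 16 genes that were not called in Kit+J relative to Kit+D had differences of −1.43 (H2bc18, adjusted p = 0.0609) to 0.33 (H2bc21). H1f1, a linker histone that compacts the fibre between nucleosomes, differed by −1.31 (adjusted p = 0.07) with no overlap between the groups. H2bc9 differed by −0.65 (adjusted p = 0.0535), also with no overlap. In all, 13 of the 27 genes had every Kit+J array below every Kit+D array, against 8.32% of all genes. H1f3, H2ac8 and H3c7 lay below the 25th percentile of mean signal (4.47), where a fall can hardly be seen. H3c15, H1f6 and H3c4 lay little above it, with mean signals of 4.53, 4.69 and 4.75.

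**Figure D2:**
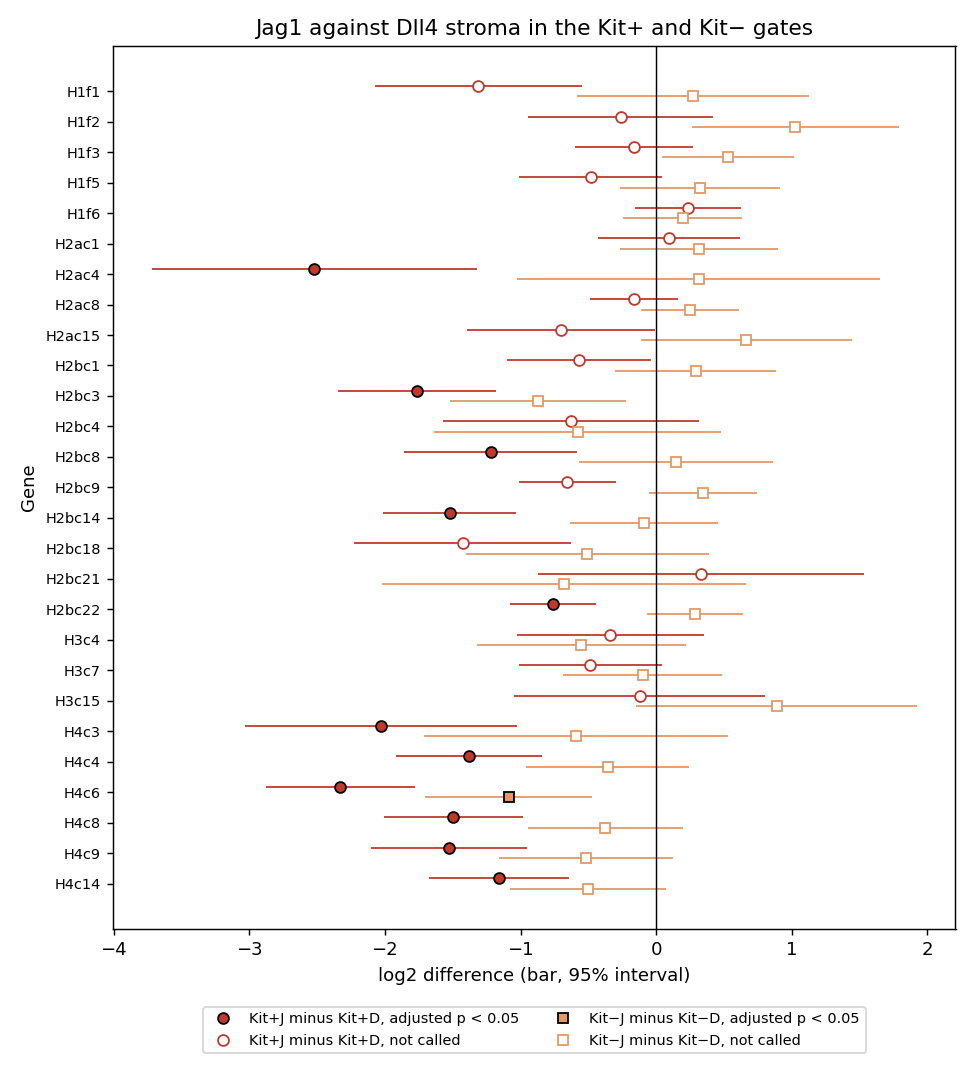
Log2 difference of each histone gene between Jag1 and Dll4 stroma in the Kit+ gate (red circles, Kit+J minus Kit+D) and in the Kit− gate (orange squares, Kit−J minus Kit−D), with 95% intervals and filled marks for adjusted p below 0.05. The 11 filled circles lie between −0.76 and −2.52, and H4c6 is the only filled square, at −1.09.

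These calls rest on the spread shared by all 17 arrays. With only the 6 Kit+J and Kit+D arrays in the fit, 0 of the 27 were called (14 at an unadjusted p under 0.05, smallest adjusted p = 0.219), and 2 of all genes. The count was 6 on leaving out Kit+J replicate 3 or Kit+D replicate 2, 7 without Kit+D replicate 1 and 14 without Kit+J replicate 1. It was 5 without a trio of arrays left out together, chosen after seeing the data because their markers of other cells stood apart (Kit+D replicates 1 and 3 and Kit−D replicate 3). The choice was not a strict rule, since Kit−D replicate 1 was kept. Its blood marker mean relative to Kit− was 0.05, against −2.40 and −2.46 on the other Kit−D arrays.

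The mean of the 27 genes on each array, set against the fresh Kit− average, was 0.20, −0.31 and −0.64 for Kit+J, against 0.81, 0.77 and 0.38 for Kit+D. It was 0.18 and 0.37 for the arrays labelled Kit−J and 0.21, 0.52 and 0.20 for Kit−D. The fresh arrays gave 0.43, 0.39 and 0.54 for Kit+, against −0.08, −0.08 and 0.15 for Kit−. Replicates 2 and 3 of Kit+J were thus the lowest arrays and replicates 1 and 2 of Kit+D the highest, with replicate 1 of Kit+J and replicate 3 of Kit+D inside the range of the other groups.

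Near-identical coding sequences mean that a probe set named for 1 histone gene can also catch RNA of its paralogs, and the 22 shared probe sets read the family as a whole. In a fit over all 34760 probe sets, 11 of the 22 fell in Kit+J relative to Kit+D and 0 rose, against 2.24% of all probe sets that fell. By class, 6 of 9 H3, 3 of 6 H2B and 2 of 5 H4 shared sets fell, and 18 of the 22 had every Kit+J array below every Kit+D array. The share with no such overlap was 8.32% over the 19937 genes and was not counted over all probe sets. Their median difference was −1.31. H3 calls were thus made on shared sets, while 0 of 3 H3 genes were called on probe sets of their own. Those 3 probe sets were dim, with mean signals of 3.34 to 4.75. The shared sets are not independent of the 27 genes, since they match the same transcripts in part.

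**Figure D3:**
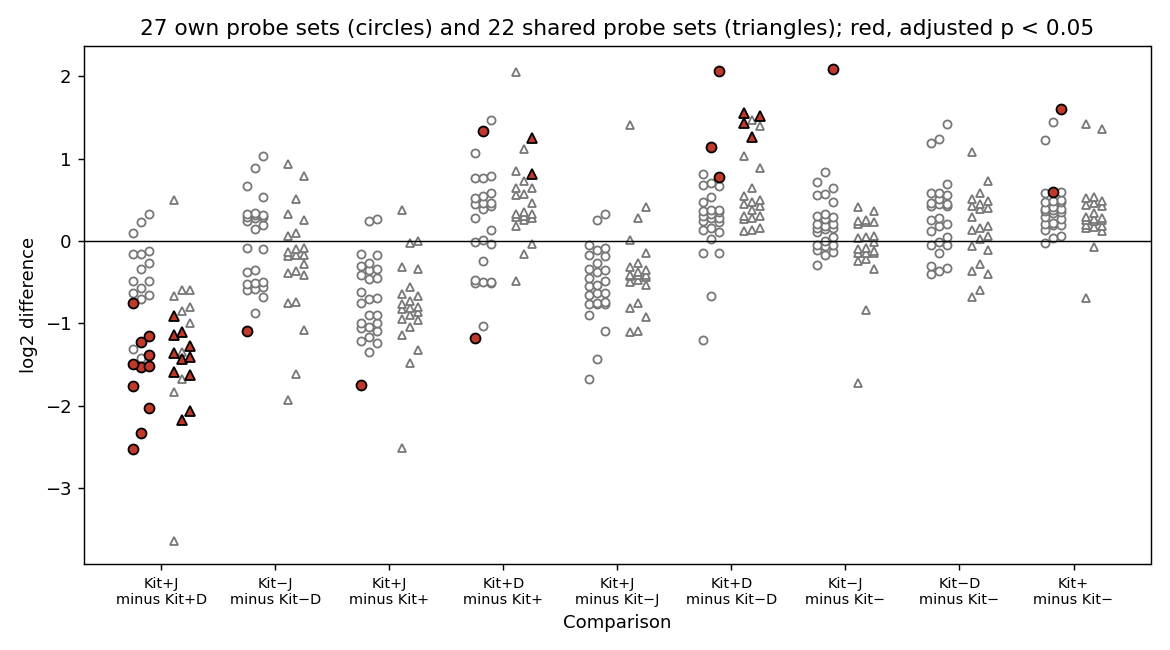
Log2 differences of the 27 histone genes (circles) and of the 22 shared histone probe sets (triangles) in the 9 comparisons between groups, red for adjusted p below 0.05. Both kinds of probe set lie mostly below 0 in Kit+J minus Kit+D, with 11 called in each.

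Other genes of DNA replication and of the histone supply were measured in the same comparison, and their difference from the histone genes was not tested. Of 29 DNA replication genes, 2 fell and 0 rose. In all 22 of them lay below 0, with a median of −0.23, against 0.03 for all genes. Their mean relative to Kit− was 0.26, 0.27 and 0.35 on Kit+J arrays. It was 0.41, 0.74 and 0.53 on Kit+D arrays, with no overlap. The 2 that fell were Tk1, thymidine kinase, which fell by 1.26 (adjusted p = 0.0194), and Cdt1, which licenses origins and fell by 1.11 (adjusted p = 0.0148). Of 15 mitosis genes 1 fell, Cdk1, the kinase that drives entry into mitosis (−0.86, adjusted p = 0.0264), and their median was 0.09. Of 13 genes for histone gene transcription and mRNA processing 0 were called, with differences of 0.28 for Slbp and 0.19 for Npat (adjusted p = 0.431 and 0.744). Of 9 histone variant genes listed as replication-independent and 14 histone chaperone and assembly genes 0 were called, with medians of 0.01 and −0.04. Of the 9 variant genes 4 lay below 0. H2ax differed by −0.47 (adjusted p = 0.14), with every Kit+J array below every Kit+D array. Macroh2a2 differed by 0.97 (adjusted p = 0.105), with every Kit+J array above every Kit+D array.

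**Figure D4:**
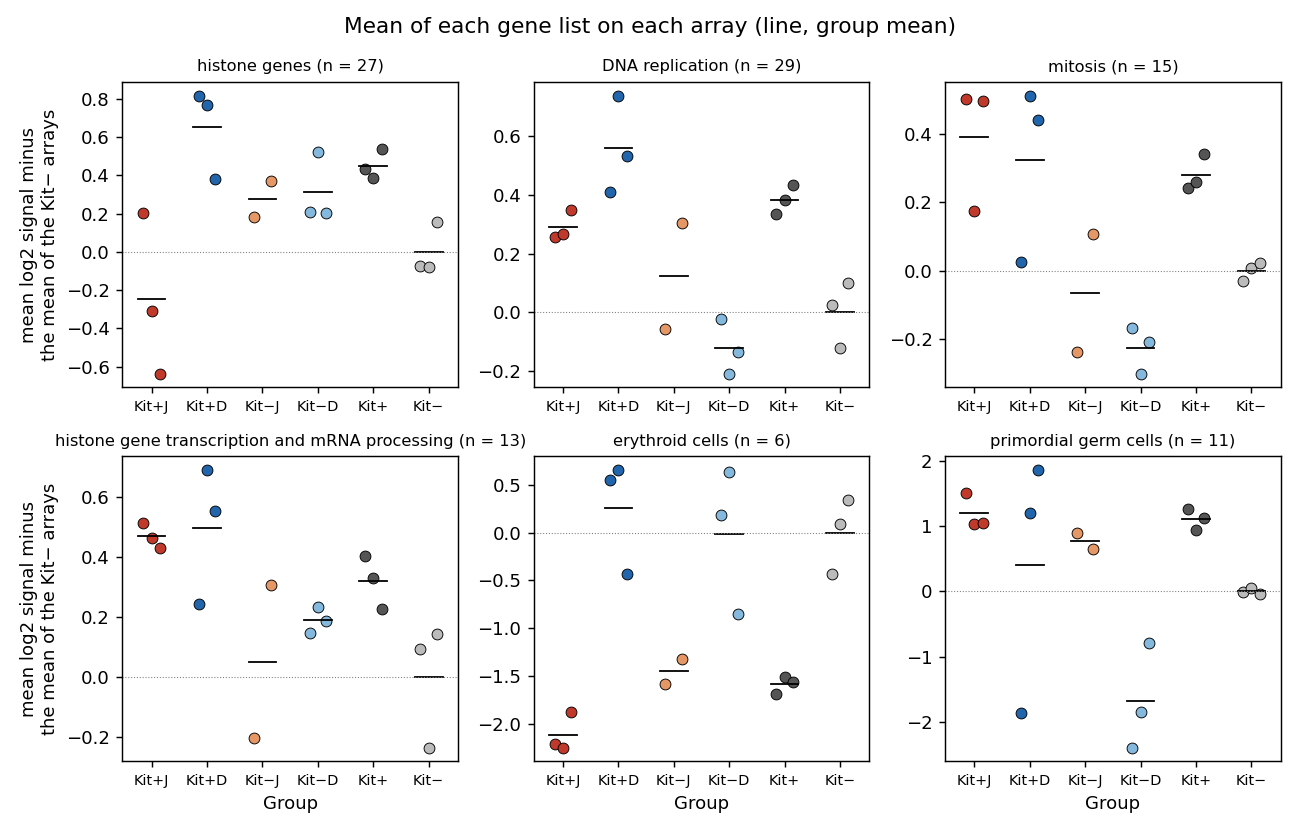
Mean log2 signal of 6 gene lists on each array, minus the average of the fresh Kit− arrays (points, arrays; lines, group means). The histone genes and the erythroid markers are both low in Kit+J and high in Kit+D, while the mitosis and processing lists overlap between those groups. On the DNA replication list every Kit+J array lies below every Kit+D array.

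Markers of other cells moved too. The second sort used no Ter119, and of 6 erythroid markers measured 2 fell in Kit+J relative to Kit+D, the embryonic globins Hba-x (−4.55, adjusted p = 0.00145) and Hbb-y (−5.91, adjusted p = 0.000493). Hbb-y read 5.77, 4.27 and 5.29 in Kit+J, against 11.39, 11.32 and 10.37 in Kit+D. The erythroid list mean relative to Kit− lay between −2.25 and −1.88 on Kit+J arrays, against −0.43 to 0.65 on Kit+D arrays. A further embryonic globin, Hbb-bh1, read 4.75, 4.33 and 6.33 in Kit+J, against 8.79, 8.72 and 7.24 in Kit+D, with no overlap (−3.11, adjusted p = 0.0588). The sixth marker, the erythropoietin receptor gene Epor, read 5.04, 5.71 and 5.09 in Kit+J, against 6.17, 6.55 and 5.25 in Kit+D. Its difference was −0.71 (adjusted p = 0.162), with an overlap. Erythroid transcription factor Klf1 and haem enzyme Alas2 differed by 0.01 and 0.06 (adjusted p = 0.988 and 0.881), and Alas2 read 4.91 to 5.66 over all arrays. In the fresh cells, which came from the earlier array set, Hbb-y read 6.76, 6.15 and 7.30 in Kit+ and 10.02, 10.88 and 11.39 in Kit−. Among other lists, 3 of 12 endothelial markers fell, and 0 of 9 blood, 0 of 12 stromal and 0 of 11 primordial germ cell markers were called. Blood markers averaged −1.01 to −0.62 on Kit+J arrays, against −2.68 to 1.16 on Kit+D arrays. Germ cell markers averaged 1.03 to 1.51 on Kit+J arrays, against −1.86 to 1.86 on Kit+D arrays, so that the Kit+D arrays differed widely among themselves in both. The part of these cells in the histone difference was not tested.

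In the Kit− gate the same contrast gave little for the histone genes. Of the 27 genes, 1 fell in Kit−J relative to Kit−D and 0 rose, against 6.07% and 3.3% of all genes, and the median was 0.14, against 0.11 for all genes. The 1 was H4c6, at 7.02 and 7.11 in Kit−J, against 7.87, 8.54 and 8.04 in Kit−D (−1.09 ± 0.29, adjusted p = 0.0305). All 6 H4 genes lay below 0 (median −0.51), whereas all 5 H1 and all 4 H2A genes lay above 0 (medians 0.32 and 0.31). The call for H4c6 was lost without either Kit−J array or without Kit−D replicates 2 or 3. Of the 6 erythroid markers, 3 fell in Kit−J relative to Kit−D. They were Hba-x (−3.19, adjusted p = 0.00458), Hbb-y (−3.15, adjusted p = 0.0061) and Hbb-bh1 (−3.60, adjusted p = 0.0243). Klf1, Alas2 and Epor lay above 0 and were not called. The globin fall was thus seen in both gates, and its relation to the histone genes was not tested.

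The difference between the gates was tested as the difference between Jag1 and Dll4 stroma in the Kit+ gate minus that in the Kit− gate. It was called for H2bc22 (−1.04 ± 0.22, adjusted p = 0.0294) and H2bc14 (−1.43 ± 0.34, adjusted p = 0.048), 2 of the 27 against 1.98% of all genes in either direction. H2bc14 read 9.12 and 9.43 in Kit−J, against 9.37, 9.51 and 9.21 in Kit−D, and H2bc22 read 6.14 and 6.05, against 5.78, 6.02 and 5.61. In the Kit− gate these groups overlapped for H2bc14 and stood in the other direction for H2bc22. The median over the 27 genes was −0.998, against −0.06 for all genes. Without Kit+J replicate 1 the count was 8 and without Kit+D replicate 3 it was 6, it was 0 on leaving out Kit+J replicate 3, Kit−J replicate 1 or Kit−D replicates 1 or 3, and it was 1 without any other single array. With the replicate number as a block the count was 1, and it was 0 with array weights, with scaling to housekeeping genes or without the trio of arrays. Of 29 DNA replication genes, 2 were called lower in the same gate contrast and 26 lay below 0 (median −0.49).

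**Figure D5:**
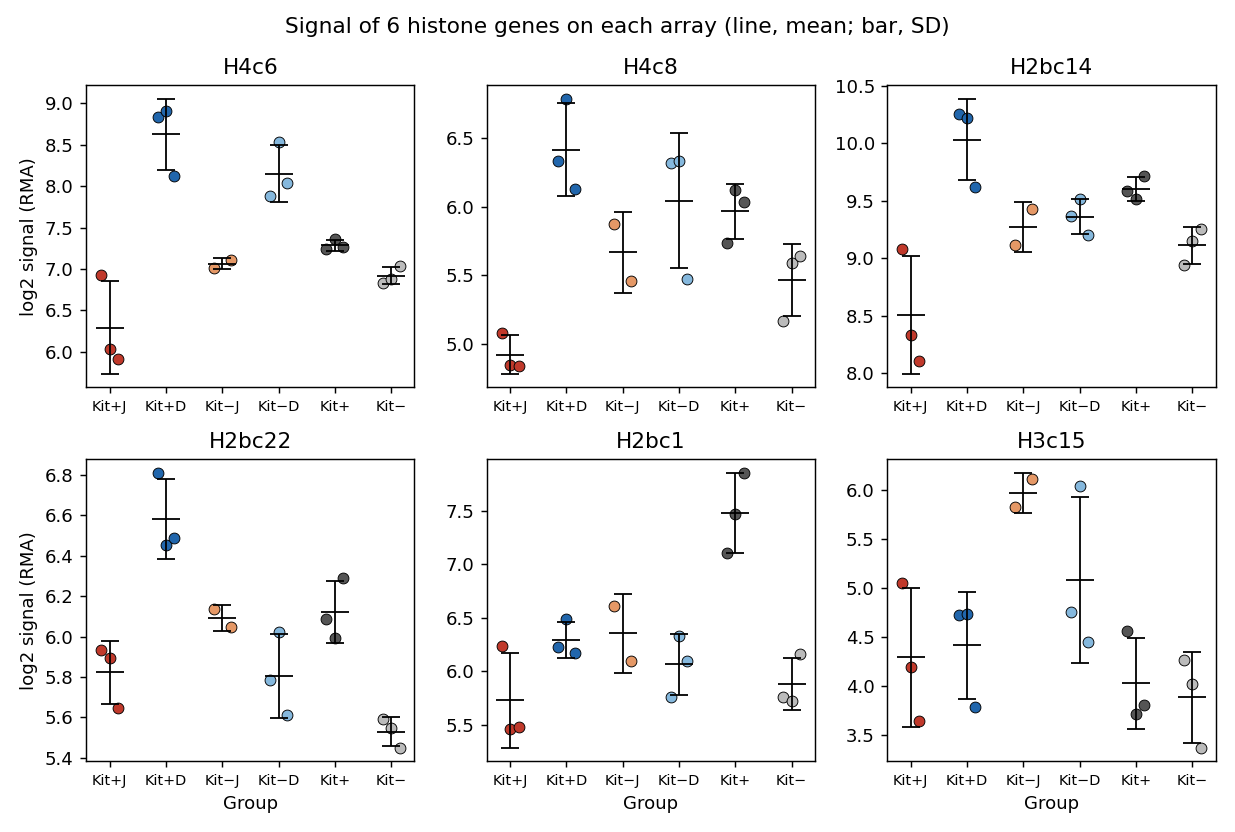
Log2 signal of 6 histone genes on each array (points) by group, with the mean (line) and SD (bar). H4c6, H4c8 and H2bc14 are lowest in Kit+J and highest in Kit+D, H2bc1 is highest in fresh Kit+ cells and H3c15 on the arrays labelled Kit−J.

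Against the fresh populations, Kit+J and Kit+D stood on opposite sides of Kit+ for much of the family. These comparisons share the Kit+ arrays. In Kit+J relative to Kit+, 1 gene fell (H2bc1) and 0 rose, against 0.0201% and 0% of all genes, with a median of −0.71, against 0.00 for all genes, and 25 of 27 genes below 0. Without Kit+J replicate 1 the count was 7, and it was 0 without Kit+ replicates 2 or 3 or Kit+J replicates 2 or 3. In Kit+D relative to Kit+, 1 rose (H4c6) and 1 fell (H2bc1), against 1.04% and 0.381% of all genes, with a median of 0.39, against −0.02 for all genes. H4c6 was 2.53-fold higher in Kit+D (8.84, 8.90 and 8.13) than in Kit+ (7.24, 7.36 and 7.26, adjusted p = 0.0254), with no overlap. All 6 H4 genes lay above 0 (median 0.78), all 5 H1 genes below 0 (median −0.49). Of the shared probe sets, 2 rose, both H3, against 1.63% of all probe sets. Leaving out any 1 Kit+ array or Kit+D replicate 2 gave 0 called genes, as did a fit of only these 2 groups, and leaving out Kit+D replicate 1 gave 1.

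H2bc1 stood apart from the rest. It encodes the testis-enriched H2B variant TH2B, which replaces H2B in male germ cells. Its signal was 7.11, 7.47 and 7.86 in fresh Kit+ cells, against 5.76, 5.72 and 6.16 in fresh Kit− cells, 3.03-fold higher with no overlap (1.60 ± 0.25, adjusted p = 0.00125). In culture it read 6.24, 5.46 and 5.48 in Kit+J (−1.75 relative to Kit+, adjusted p = 0.0284) and 6.23, 6.49 and 6.17 in Kit+D (−1.18, adjusted p = 0.0341). It was the only gene of the 27 that fell against Kit+ on both stromas. Its signal was 6.61 and 6.09 in Kit−J and 5.76, 6.33 and 6.10 in Kit−D. Of 11 primordial germ cell markers 0 were called in these 3 comparisons, yet all 11 lay above 0 in Kit+ relative to Kit−, with list means of 0.94 to 1.27 on Kit+ arrays, against −0.04 to 0.05 on Kit− arrays. Relative to Kit+, 2 of the 11 lay below 0 in Kit+J (median 0.09) and 9 in Kit+D (median −0.64). The part of germ cells in the H2bc1 signal was not tested. The other germ cell histone genes were not called in any comparison. H2ac1, the TH2A gene transcribed away from H2bc1, read 7.16, 7.17 and 7.56 in Kit+, against 6.81, 6.50 and 6.79 in Kit− (0.60, adjusted p = 0.274). H1f6, the testis linker histone, read 4.09 to 5.20 over all arrays.

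Between the fresh populations, 2 of 27 genes were higher in Kit+ than in Kit− and 0 lower, against 0.562% and 2.67% of all genes. The second was H2bc22, at 6.09, 5.99 and 6.29 in Kit+, against 5.59, 5.55 and 5.45 in Kit− (0.59 ± 0.15, adjusted p = 0.0406). The differences were small but mostly to the same side, with 26 of 27 above 0 and a median of 0.38, against 0.06 for all genes. Of 29 DNA replication genes 2 were higher, Mcm10 (0.85, adjusted p = 0.0455) and Gins1 (1.04, adjusted p = 0.022), both parts of the replication fork. Leaving out any 1 array other than Kit− replicate 3 left 1 call, and H2bc1 was called in all 17 alternatives run for it.

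The Kit gates were also compared within each culture. In Kit+D relative to Kit−D, 3 genes rose and 0 fell, against 6.5% and 6.62% of all genes. They were H2bc22 (0.78, adjusted p = 0.00341), H2ac4 (2.07, adjusted p = 0.025) and H1f1 (1.14, adjusted p = 0.0491). H2ac4 read 7.83, 8.22 and 8.65 in Kit+D, against 5.78, 6.11 and 6.60 in Kit−D. Of 29 replication genes 17 were higher and 0 lower (Mcm2 to Mcm7 among them, 0.71 to 1.47), and 7 of 15 mitosis genes were higher. So were 5 of 11 primordial germ cell markers (Dppa3, Dppa5a, Dazl, Nanos3 and Tfap2c, 1.73 to 3.10), with list means of −1.86 to 1.86 on Kit+D arrays, against −2.39 to −0.79 on Kit−D arrays, and the part of germ cells in these counts was not tested. Of 9 variant genes, H2ax and Cenpa rose by 0.70 and 1.04 (adjusted p = 0.0113 and 0.00544) and Macroh2a2, a macroH2A gene, fell by 2.12 (adjusted p = 0.000415). In Kit+J relative to Kit−J, 0 of the 27 genes were called, against 0.0552% higher and 0.0351% lower of all genes, although 10 had an unadjusted p under 0.05 in limma and 25 lay below 0 (median −0.53, against −0.03 for all genes). The count for Kit+D relative to Kit−D was 1 without Kit−D replicates 1 or 2 or Kit+D replicate 2, and 0 without the trio.

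In the Kit− gate against fresh cells few genes moved. In Kit−J relative to Kit−, 1 gene rose and 0 fell, against 0.251% and 1.89% of all genes. It was H3c15, a chromosome 3 gene for histone H3, at 5.83 and 6.11 in Kit−J, against 4.27, 4.02 and 3.37 in Kit− (2.08 ± 0.48, adjusted p = 0.0373). These Kit− values lay below 4.47, the 25th percentile of mean signal over genes, so the size of the rise is uncertain. It read 5.04, 4.19 and 3.64 on Kit+J arrays, 4.72, 4.74 and 3.78 on Kit+D arrays and 4.75, 6.04 and 4.45 on Kit−D arrays, so that 1 Kit−D array lay within the range of the Kit−J arrays. The call was lost without any 1 of the arrays of Kit−J or Kit−. In Kit−D relative to Kit−, 0 genes were called by limma, against 0.145% higher and 0.0251% lower of all genes, with 6 at an unadjusted p under 0.05. With array weights 1 was called. H4c6 was the nearest to a call, at 7.87, 8.54 and 8.04 in Kit−D, against 6.83, 6.88 and 7.03 in Kit− (1.23, adjusted p = 0.0621).

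Across all 6 groups a moderated F test called 13 of the 27 genes, against 16% of all genes. They were H1f1, H2ac4, H2bc1, H2bc3, H2bc9, H2bc14, H2bc22, H3c15, H4c4, H4c6, H4c8, H4c9 and H4c14. Probe sets differ in affinity, so their signals give no order of expression between genes. By probe set signal alone, the brightest and dimmest members of each class over the 17 arrays were H1f5 and H1f3, H2ac15 and H2ac8, H2bc9 and H2bc18, H3c4 and H3c7, and H4c4 and H4c8. H2ac15 read 10.44, 9.05 and 8.68 in Kit+J, against 10.27, 9.75 and 10.26 in Kit+D, an overlap through replicate 1 of Kit+J. H1f5 read 9.38, 8.60 and 8.47 in Kit+J, against 9.56, 9.23 and 9.10 in Kit+D, also an overlap through that array.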

How the data were processed

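RNA of about 5 ng per sample, from independent sorts of pooled embryos, was amplified with the NuGEN Ovation Pico WTA system and hybridised to Affymetrix Mouse Gene 1.0 ST arrays. The authors deposited log2 signals normalised with RMA (robust multi-array average, version not given in the sources used here). No counts exist, and the number of arrays limits the precision. Of 34760 probe sets, 21640 name 1 gene, 1321 several and 11799 none in the platform annotation. The brightest single-gene probe set by mean stood for each of 19937 genes, and all 27 members matched RefSeq.

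One limma (3.58.1, R 4.3.3) model of 6 group means was fitted over 17 arrays, with Benjamini-Hochberg adjustment over all genes and a call at 0.05. It was tested on simulated data. Named genes were members called in a comparison (up to 8), germ cell members, the brightest and dimmest member of a class, and up to 4 called genes of other lists. Alternatives are given below. Members and lists were chosen with earlier results of these data known. Deviations from the group means correlated over genes at 0.462, 0.179 and 0.289 between Dll4 arrays of the same number, which was read as pairing. Fresh arrays gave 0.00644 to 0.065, and Jag1 arrays −0.114 and −0.263. Jag1 arrays of different numbers gave −0.194 to 0.263. With 2 Kit−J arrays the deviations are mirror images, so each Jag1 correlation recurs with the opposite sign and is not separate evidence. The paper also left out a Kit−J sample for technical reasons. The block by replicate number may thus not pair the Jag1 arrays correctly.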

Additional observations from a re-analysis of the deposited data

Results flagged for a closer look

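The difference between Jag1 and Dll4 stroma itself differed between the Kit gates for 2 histone genes in limma. For H2bc14 the Kit+ gate difference minus the Kit− gate difference was −1.43 (adjusted p = 0.048), and for H2bc22 it was −1.04 (adjusted p = 0.0294). The count was 1 with the replicate number as a block, and 0 with array weights, with scaling to housekeeping genes or without the trio of arrays whose other-cell markers stood apart. Both rest on the arrays labelled Kit−J, whose endothelial marker signals lay nearer to those of Kit+ cells and whose Kit signals lay between those of Kit+ and Kit− cells. What the labels contribute to this difference was not tested.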

How the results depend on the processing

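Counts are of the 27 histone genes called in limma. The fall in Kit+J relative to Kit+D (11 genes) was 0 with only the groups compared and 5 on leaving out a trio of arrays (replicate 3 of Kit−D, replicates 1 and 3 of Kit+D), whose other-cell markers stood apart, and 6 to 14 on leaving out 1 array. The trio and a fit over all probe sets were chosen after seeing the data, as was leaving out both Kit−J arrays, which moved no count past 1.5 times among the 6 comparisons that do not use them. Without the trio, Kit+D against Kit+ gave 0, Kit−J against Kit−D 2 (1 higher, 1 lower), Kit+J against Kit−J 1, Kit+D against Kit−D 0 and the difference between gates 0. With only the groups compared, Kit+J against Kit+ gave 0, Kit+D against Kit+ 0 and Kit−J against Kit−D 3. Array weights gave 4 for Kit+ against Kit−, 0 for Kit−J against Kit−, 1 for Kit−D against Kit−, 0 for Kit−J against Kit−D, 5 for Kit+D against Kit−D and 0 for the difference between gates. Scaling to 5 of 8 listed housekeeping genes with a probe set of their own gave 1 for Kit+ against Kit−, 0 for Kit+J against Kit+ and 0 for the difference between gates, and shifted the median of all genes by 0.147 (Kit+D, Kit+), −0.103 (Kit−J, Kit−) and −0.133 (Kit−J, Kit−D). Quantile normalisation gave 1 gene higher in place of the 1 lower for Kit−J against Kit−D. A variance trend with a robust prior gave 1 for Kit+ against Kit−. All probe sets gave 1 for Kit+ against Kit−, 0 for Kit−J against Kit− and 1 for the difference between gates. Leaving out 1 array gave 1 to 2 for Kit+ against Kit−, 0 to 7 for Kit+J against Kit+, 0 to 2 for Kit+D against Kit+, 0 to 0 for Kit−J against Kit−, 0 to 1 for Kit−J against Kit−D, 0 to 1 for Kit+J against Kit−J, 1 to 3 for Kit+D against Kit−D, 8 to 16 for any of 6 groups and 0 to 8 for the difference between gates. With the replicate number as a block, the difference between gates gave 1 and Kit+J against Kit+D 11, and no other count moved past 1.5 times. Of 353 alternative values for single called genes, 251 kept their call, 102 lost it and 0 changed sign. The causes of these changes were not tested.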
